A study of Arabidopsis thaliana with 35 samples.

Results

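The genes described here are those of the plastid genome of Arabidopsis thaliana that could be followed on the arrays. They are the genes with a plastid locus tag (ArthCp) for which a probe set, the group of oligonucleotides that reads a transcript, names that gene and no other. Of 13356 genes tested, 69 met this rule, out of 84 plastid locus tags in the RefSeq annotation used. They comprise 43 photosynthesis genes (psa, psb, pet, atp, ndh and rbcL), 19 gene expression genes (rpo, rps and rpl) and 7 others (accD, ccsA, cemA, clpP, matK, ycf3 and ycf4). Genes of the inverted repeat, which the plastid genome carries in duplicate, were left out because 8 probe sets name both copies.

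Plastids keep a small genome of their own. It encodes core subunits of photosystems I and II, of the cytochrome b6f complex between them, of the ATP synthase, of the NADH dehydrogenase-like (NDH) complex and the large subunit of Rubisco (rbcL), which fixes carbon dioxide. It also encodes part of the machinery that reads it, namely the core subunits of the bacterial-type plastid RNA polymerase (rpo) and proteins of the small (rps) and large (rpl) ribosomal subunits. In plants, photosynthesis genes are read mainly by this polymerase, whereas a phage-type polymerase made in the nucleus reads the rpo genes and several other housekeeping genes. Most plastid genes lie in clusters whose members are transcribed together, then cut, spliced and edited. Green cells of the cotyledon hold many chloroplasts, and root cells hold non-green plastids with far less of these transcripts.

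The study measured seedlings of the natural accession RRS-7 that grew for 5 days at 20 °C in days of 16 h light and 8 h dark at 120 µmol photons per square metre and second. On day 5, plates went to 28 °C at ZT 7 (7 h after lights on) or remained at 20 °C as controls, and cotyledons, hypocotyls and roots were dissected 3 h later at ZT 10 or 24 h later at ZT 7 of day 6. Each of the 12 combinations of organ, temperature and time has 3 arrays, each from pooled seedlings and called a biological replicate, except root at 28 °C after 3 h with 2, which makes 35 arrays. All groups share the genotype and light, and by the labels the groups compared at a given time differ by temperature alone.

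Values are log2 expression on Affymetrix arrays, 1 unit being a doubling, and changes are log2 differences ± standard errors from limma, with n = 3 arrays per group unless stated. A gene was called at an adjusted p under 0.05 over all 13356 genes. Between replicate arrays r was 0.992 to 0.997 over all probe sets. Plastid genes varied more between replicates than other genes, with a median residual standard deviation of 0.234 log2 against 0.130 for all genes, and they moved together from array to array. In the cotyledon group at 20 °C after 3 h, 0 of 69 lay above the group mean in replicate 2, with a median deviation of -0.28, and in the 28 °C group of that time 66 of 69 lay above it in replicate 1. Counts that depend on such an array are given with and without it. In whole organs, fewer plastid-bearing cells and less RNA per cell cannot be told apart. The labelling followed the standard Affymetrix protocol, which starts from poly(A) tails that most plastid mRNAs lack, and its part in the values was not tested.

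The photosynthesis and gene expression classes were compared over the 12 groups by the mean of each class in each array, after every gene was centred on its mean over the groups. In cotyledons the photosynthesis class stood above the gene expression class, with group means of 1.59 ± 0.29 (SD, n = 3) and 0.97 ± 0.23 at 20 °C after 3 h. In hypocotyls at 20 °C after 3 h the order was the other way round, with 0.72 ± 0.10 against 1.12 ± 0.10. Roots lay far below both organs in either class, at -2.29 ± 0.09 and -1.68 ± 0.09. These are relative levels of the same genes across groups, and no level of a photosynthesis gene was set against that of a gene expression gene.

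The photosynthesis mean minus the gene expression mean in an array is free only of what shifts all plastid genes of that array alike. Shifts of an array were not always alike in both classes, and the unequal part remains in the difference. In cotyledon replicate 3 at 28 °C after 24 h, the median deviation from the group mean was 0.12 for photosynthesis genes. For gene expression genes it was 0.25 in that array. The class difference was higher at 28 °C than at 20 °C in 5 of the 6 comparisons, with no overlap of the arrays. In cotyledons after 24 h it was 0.49, 0.48 and 0.54 at 20 °C and 0.92, 0.91 and 0.76 at 28 °C, a shift of 0.36. In hypocotyls after 3 h it was -0.41, -0.38 and -0.40 at 20 °C and -0.07, -0.10 and -0.12 at 28 °C, a shift of 0.30. The SD within temperatures, pooled over both, was 0.0202 here, the smallest of the 6 comparisons. In hypocotyls after 24 h the difference was -0.27, -0.36 and -0.36 at 20 °C and -0.05, -0.18 and 0.09 at 28 °C, a shift of 0.28. In roots after 3 h it was -0.58, -0.66 and -0.57 at 20 °C and -0.44 and -0.33 in the pair of 28 °C arrays, a shift of 0.22. In all these comparisons the 28 °C arrays lay above the 20 °C arrays by this measure. Roots after 24 h gave -0.57, -0.56 and -0.55 and -0.28, -0.16 and -0.29, a shift of 0.31. In cotyledons after 3 h the arrays overlapped, with 0.74, 0.56 and 0.56 at 20 °C and 0.75, 0.68 and 0.60 at 28 °C, a shift of 0.05. The classes were formed from genes that share transcripts and arrays, so these shifts are a description of the arrays and carry no p.

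**Figure D1:**
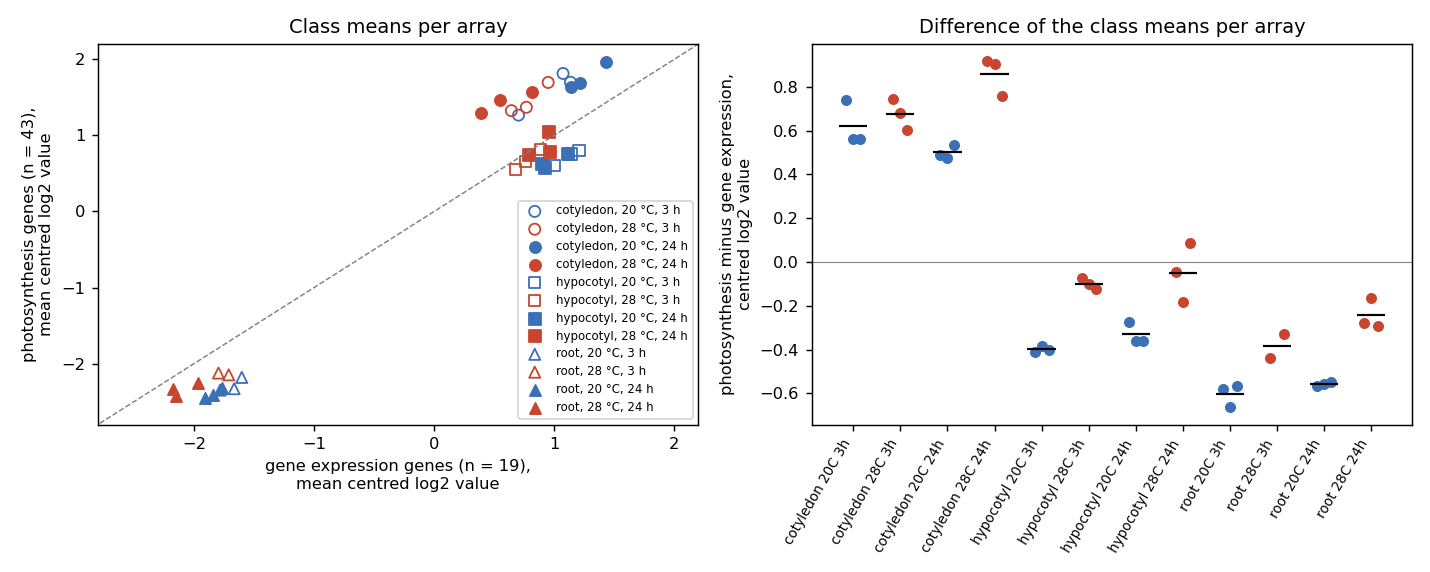
Left: mean of the 43 photosynthesis genes (y axis) against the mean of the 19 gene expression genes (x axis) in each of the 35 arrays, in centred log2 units, with shape for organ, colour for temperature and filling for time, and a dashed line where both are equal. Right: the difference of the class means per array (points) with the group mean (line), which is higher at 28 °C than at 20 °C without overlap of the arrays in every pair of groups except cotyledon at 3 h.

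Cotyledons after 24 h at 28 °C showed by count the most calls of the 6 warm comparisons: 34 of 69 plastid genes (49.3%) fell and 2 rose. Among all genes tested 13.4% fell and 15.0% rose. The falls took in 15 of 19 gene expression genes, 6 of 7 other genes and 13 of 43 photosynthesis genes. The median change was -0.72 in the gene expression class, -0.81 among the others and -0.34 in the photosynthesis class, beside -0.02 over all genes. Leaving out any of the 6 arrays left between 27 and 37 plastid genes called. The fewest, 27 and 28, came with replicate 2 of the warm arrays or replicate 3 of the control arrays omitted. Both arrays were shifted as a whole. In that warm array 6 of 69 plastid genes lay above the group mean, with a median deviation of -0.15. In that control array 63 of 69 did, with a median deviation of 0.16. The falls are therefore not independent of each other. With arrays centred on reference genes, 67.8% of all genes called were higher in place of 52.8%, and 30 plastid genes fell and 2 rose.

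Among genes of the expression machinery, all 4 measured subunits of the plastid RNA polymerase fell. Transcripts of rpoC2, the β'' subunit, read 9.11, 9.51 and 9.40 in the 20 °C arrays and 8.43, 8.30 and 8.93 in the 28 °C arrays, a fall of 1.72-fold, log2 change -0.79 ± 0.17, limma adjusted p = 0.000394. For rpoA, the α subunit, the values were 12.57, 12.51 and 12.78 in the 20 °C arrays and 12.13, 12.06 and 12.47 in the 28 °C arrays (1.32-fold, log2 change -0.40 ± 0.10, limma adjusted p = 0.00343). Neither pair of groups overlapped. The fall of rpoB, the β subunit (-0.78 ± 0.13, adjusted p = 2.78e-05), was read from a dim probe set, with 4.05, 4.70 and 4.22 in the 20 °C arrays and 3.49, 3.38 and 3.76 in the 28 °C arrays, and array values this low understate differences. rpoC1, the β' subunit, changed by -0.47 ± 0.16 (adjusted p = 0.0224), and this call was lost when control replicate 3 or warm replicate 2 was omitted.

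Of 8 genes for small ribosomal subunit proteins 6 fell, and of 7 for the large subunit 5 did. The largest change of any plastid gene in this comparison was that of rpl20, which read 7.74, 7.80 and 8.13 in the 20 °C arrays and 6.77, 6.22 and 6.30 in the 28 °C arrays (2.76-fold, log2 change -1.46 ± 0.28, limma adjusted p = 0.000114). rpl16 read 11.49, 11.62 and 11.70 in the 20 °C arrays and 10.57, 9.80 and 10.71 in the 28 °C arrays (2.36-fold, log2 change -1.24 ± 0.19, limma adjusted p = 5.56e-06). The gene rps16 gave 8.32, 8.28 and 8.79 in the 20 °C arrays and 7.01, 7.18 and 7.56 in the 28 °C arrays (2.32-fold, log2 change -1.21 ± 0.19, limma adjusted p = 7.22e-06). All 28 °C arrays lay below all 20 °C arrays for each of these 3 genes. For rps14, with 5.47, 5.27 and 6.94 in the 20 °C arrays and 4.57, 4.43 and 4.77 in the 28 °C arrays, the groups did not overlap either (2.47-fold, log2 change -1.31 ± 0.32, limma adjusted p = 0.00205), but replicate 3 at 20 °C was far above the other 20 °C arrays, and without it the change was -0.78, still called. The 4 ribosomal protein genes that were not called were rps4 (-0.12), rps18 (-0.05), rpl33 (-0.04) and rpl32 (-0.27).

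The other class fell in all but clpP (-0.10 ± 0.09), which encodes the proteolytic subunit of the Clp protease. ycf3, needed for photosystem I assembly, read 10.96, 11.14 and 11.22 in the 20 °C arrays and 9.62, 9.23 and 10.20 in the 28 °C arrays (2.68-fold, log2 change -1.42 ± 0.22, limma adjusted p = 5.06e-06). ccsA, which attaches haem to c-type cytochromes, read 11.87, 11.85 and 11.87 in the 20 °C arrays and 10.64, 10.29 and 10.78 in the 28 °C arrays (2.45-fold, log2 change -1.29 ± 0.20, limma adjusted p = 4.17e-06). The acetyl-CoA carboxylase subunit gene accD, which serves fatty acid synthesis, read 8.22, 8.38 and 8.36 in the 20 °C arrays and 7.38, 6.83 and 7.25 in the 28 °C arrays (2.24-fold, log2 change -1.16 ± 0.21, limma adjusted p = 5.36e-05). In these 3 genes every 28 °C array was below every 20 °C array. cemA, an envelope membrane protein (-0.81), ycf4, a photosystem I assembly factor (-0.73), and matK, the intron maturase (-0.43), fell by less.

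Photosynthesis genes differed by complex in the same cotyledons. Photosystem II had 2 rises and 1 fall among 15 genes and a median of -0.04. The NDH complex had 3 falls among 10 genes (median -0.37), the ATP synthase 3 among 6 (-0.40), cytochrome b6f 3 among 6 (-0.43) and photosystem I 2 among 5 (-0.45). No rise was called outside photosystem II. The ATP synthase falls were those of the membrane-sector genes atpI (-1.05 ± 0.23), atpH (-0.89 ± 0.27) and atpF (-0.63 ± 0.22), while atpA (-0.17), atpB (-0.08) and atpE (-0.06) of the catalytic sector were not called.

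The rises were those of psbE and psbF, which encode the α and β subunits of cytochrome b559 in photosystem II. psbE read 11.18, 11.31 and 11.41 in the 20 °C arrays and 11.87, 11.84 and 11.94 in the 28 °C arrays (1.50-fold, log2 change 0.58 ± 0.12, limma adjusted p = 0.00021). For psbF the values were 12.25, 12.22 and 12.37 in the 20 °C arrays and 12.55, 12.62 and 12.62 in the 28 °C arrays (1.24-fold, log2 change 0.31 ± 0.09, limma adjusted p = 0.00538). Neither gene's groups overlapped. psbD, the reaction centre protein D2, fell (-0.87 ± 0.22, limma adjusted p = 0.00236), whereas psbA, the reaction centre protein D1, read 10.26, 10.07 and 10.45 in the 20 °C arrays and 10.14, 10.15 and 10.37 in the 28 °C arrays, with overlapping groups (-0.04 ± 0.18, adjusted p = 0.906). rbcL read 11.43, 11.56 and 11.68 in the 20 °C arrays and 11.19, 10.68 and 11.03 in the 28 °C arrays (1.50-fold, log2 change -0.59 ± 0.16, limma adjusted p = 0.00451). That call was lost without replicate 2 at 28 °C, when the change was -0.45. psaA, a photosystem I reaction centre protein, fell by 0.76 (limma adjusted p = 0.0299), and its partner psaB gave -0.26 ± 0.16 (adjusted p = 0.229). The call for psaA was lost when control replicate 3 or warm replicate 1 or 2 was omitted.

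**Figure D2:**
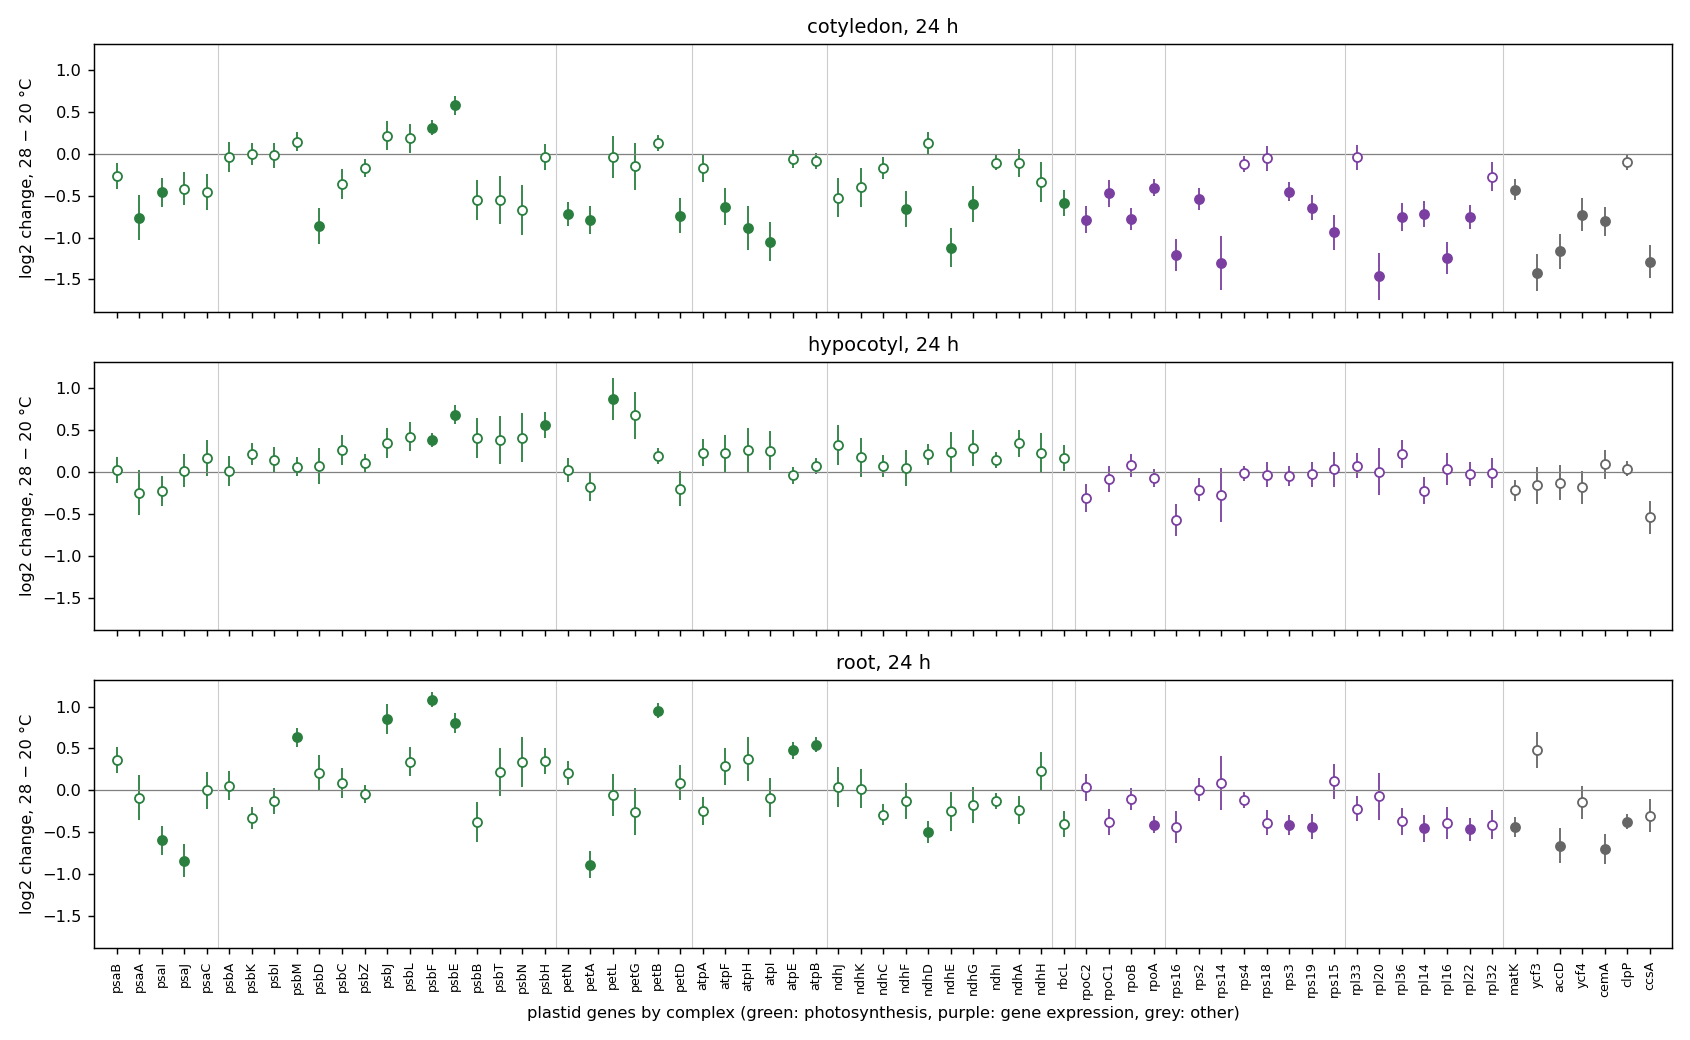
Log2 change at 28 °C against 20 °C after 24 h (points, with bars of 1 standard error) for the 69 plastid genes grouped by complex, in cotyledon, hypocotyl and root; filled points passed the limma test. The gene expression genes lie below 0 in cotyledon and mostly below it in root, where psbF (1.08), petB (0.95), psbJ (0.85) and psbE (0.80) stand above it.

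After 3 h at 28 °C the cotyledon differed less. 4 plastid genes fell and 1 rose, against 12.1% and 10.3% of all genes, so the 5.80% of members that fell was no larger a share than in the background. The gene ccsA read 11.64, 11.40 and 11.71 in the 20 °C arrays and 11.13, 10.67 and 10.83 in the 28 °C arrays (1.63-fold, log2 change -0.71 ± 0.20, limma adjusted p = 0.0075). Its arrays did not overlap, and its call held without any array. psbD read 9.33, 8.07 and 8.90 in the 20 °C arrays and 8.53, 7.90 and 7.91 in the 28 °C arrays (1.57-fold, log2 change -0.65 ± 0.22, limma adjusted p = 0.0266) and overlapped. For rps14 the values were 6.88, 5.17 and 5.04 in the 20 °C arrays and 4.80, 4.48 and 4.92 in the 28 °C arrays (1.95-fold, log2 change -0.96 ± 0.32, limma adjusted p = 0.0276), with replicate 1 at 20 °C far above the rest. With that array omitted the change of rps14 was -0.37 and not called. psaA gave 8.65, 7.38 and 8.29 in the 20 °C arrays and 7.67, 7.14 and 7.14 in the 28 °C arrays (1.73-fold, log2 change -0.79 ± 0.27, limma adjusted p = 0.0301), and the temperatures overlapped. psbF was the gene that rose, at 12.18, 11.97 and 12.22 in the 20 °C arrays and 12.33, 12.28 and 12.49 in the 28 °C arrays (1.18-fold, log2 change 0.24 ± 0.09, limma adjusted p = 0.0395). Without replicate 2 at 20 °C, the array in which all plastid genes were low, 16 plastid genes were called in place of 5, and omitting control replicate 3 gave 3. Omitting control replicate 1, or warm replicate 2 or 3, gave 2. In the first of these fits psbD (-0.37) and psaA (-0.52) lost their calls too.

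In hypocotyls after 3 h at 28 °C, 7 plastid genes fell and 0 rose (limma), with 13 falls and 0 rises at an unadjusted p under 0.05. The falls were 10.1% of the plastid genes, and over all genes 7.64% fell and 6.99% rose. The falls were those of 5 gene expression genes (26.3% of 19) and 2 of the others. Among 43 photosynthesis genes 0 passed in either direction, 1 at an unadjusted p under 0.05. The class medians were -0.30 for gene expression and -0.05 for photosynthesis, beside 0.03 over all genes.

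rps16 had the largest of these falls, from 8.99, 8.92 and 8.61 at 20 °C to 7.92, 7.67 and 7.99 at 28 °C (1.97-fold, log2 change -0.98 ± 0.19, limma adjusted p = 0.000454). The RNA polymerase genes rpoC2 (-0.50 ± 0.17, limma adjusted p = 0.039), rpoC1 (-0.49 ± 0.16, adjusted p = 0.031) and rpoA (-0.41 ± 0.10, adjusted p = 0.00687) fell. rpoA read 13.01, 12.97 and 12.79 in the 20 °C arrays and 12.50, 12.55 and 12.49 in the 28 °C arrays, without overlap. The fourth subunit gene, rpoB, was dim in hypocotyls and stood at -0.06 ± 0.13. Of the others, ccsA went from 11.18, 11.16 and 11.01 to 10.43, 10.74 and 10.17 (1.59-fold, log2 change -0.67 ± 0.20, limma adjusted p = 0.0187) and ycf3 from 10.62, 10.41 and 10.19 to 9.73, 9.81 and 9.76 (1.56-fold, log2 change -0.64 ± 0.22, limma adjusted p = 0.0456). The large-subunit gene rpl36 also fell (-0.47 ± 0.16). The calls for rps16 and rpoA held without any array. With control replicate 1 or 2 or warm replicate 3 omitted the count was 2, with warm replicate 1 or 2 omitted it was 4, and the falls of ccsA, ycf3, rpoC1 and rpoC2 were each lost in at least 4 of these fits. The change of rpoC1 was -0.29 with control replicate 1 omitted.

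After 24 h the hypocotyl showed rises only, all of photosynthesis genes: 4 of 43 rose and 0 fell (limma; 8 and 0 at an unadjusted p under 0.05). The rises were 5.80% of the 69, near the background of 5.08% higher, with 4.58% lower, and centring on reference genes moved the share of rises among all genes called from 52.6% to 74.0% and left 4 plastid rises. Changes were positive in 38 of the 43, with a median of 0.21, and the gene expression class had a median of -0.03 with 0 called and 1 at an unadjusted p under 0.05. The 43 genes moved together from array to array, so they are not replicates of this change. Their mean per array was 0.63, 0.56 and 0.76 at 20 °C and 0.74, 0.78 and 1.04 at 28 °C, with overlap and with warm replicate 3 the highest. psbE read 10.48, 10.20 and 10.62 in the 20 °C arrays and 11.06, 11.30 and 10.99 in the 28 °C arrays (1.61-fold, log2 change 0.69 ± 0.12, limma adjusted p = 0.000147). psbF gave 11.76, 11.64 and 11.70 in the 20 °C arrays and 12.08, 12.04 and 12.12 in the 28 °C arrays (1.3-fold, log2 change 0.38 ± 0.09, limma adjusted p = 0.0034). These 2 cytochrome b559 genes had no overlap between temperatures and were called without any array. The small photosystem II gene psbH went from 8.70, 8.39 and 9.02 to 9.43, 9.31 and 9.06 (1.48-fold, log2 change 0.56 ± 0.15, limma adjusted p = 0.0171), a call lost without replicate 1 or 2 at either temperature. petL, a small subunit of cytochrome b6f, read 5.92, 5.49 and 5.92 in the 20 °C arrays and 6.18, 6.21 and 7.54 in the 28 °C arrays (1.83-fold, log2 change 0.87 ± 0.25, limma adjusted p = 0.0237). Its size rests on replicate 3 at 28 °C, without which the change was 0.42 and not called. The same array was high for petG (4.27, 4.74 and 6.17), for rpl20 (5.78, 5.80 and 7.46) and for atpH (8.28, 8.16 and 9.93).

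Root arrays read much lower levels of plastid transcripts, and 12 of 69 genes lay below 3.85, the 25th percentile of all gene means, in every root group. After 3 h at 28 °C 4 plastid genes rose and 0 fell (limma; 8 and 2 at an unadjusted p under 0.05), against 5.38% and 5.35% of all genes, and the rises were 5.80% of the 69. petB, cytochrome b6, read 9.20, 9.08 and 9.20 in the 20 °C arrays and 9.66 and 9.53 in the 28 °C arrays (1.35-fold, log2 change 0.44 ± 0.11, limma adjusted p = 0.00482). psbF read 8.05, 7.81 and 7.72 in the 20 °C arrays and 8.27 and 8.25 in the 28 °C arrays (1.32-fold, log2 change 0.40 ± 0.10, limma adjusted p = 0.00511). The NDH subunit gene ndhD gave 4.46, 4.09 and 4.07 in the 20 °C arrays and 4.76 and 4.61 in the 28 °C arrays (1.39-fold, log2 change 0.47 ± 0.14, limma adjusted p = 0.0289). Both 28 °C arrays lay above all 20 °C arrays in these 3 genes. For matK the values were 8.44, 8.07 and 8.02 in the 20 °C arrays and 8.47 and 8.71 in the 28 °C arrays (1.33-fold, log2 change 0.42 ± 0.14, limma adjusted p = 0.0431). With 2 arrays at 28 °C these calls were few and unstable, at 0 with warm replicate 1 omitted, 2 with warm replicate 2 or control replicate 2 or 3 omitted, and 6 with control replicate 1 omitted.

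Roots after 24 h at 28 °C had 7 rises and 13 falls among the plastid genes, that is 10.1% and 18.8%, against 8.39% and 9.31% of all genes. All the rises were photosynthesis genes, and 5 of 19 gene expression genes fell. psbF read 7.70, 7.64 and 7.42 in the 20 °C arrays and 8.63, 8.67 and 8.71 in the 28 °C arrays (2.12-fold, log2 change 1.08 ± 0.09, limma adjusted p = 4.56e-11). petB read 8.69, 8.83 and 8.64 in the 20 °C arrays and 9.50, 9.57 and 9.95 in the 28 °C arrays (1.93-fold, log2 change 0.95 ± 0.09, limma adjusted p = 3.76e-09). psbE, with 6.99, 6.70 and 6.42 in the 20 °C arrays and 7.61, 7.47 and 7.45 in the 28 °C arrays, rose as well (1.75-fold, log2 change 0.80 ± 0.12, limma adjusted p = 3.82e-06). No groups overlapped for these 3 genes. psbJ (0.85 ± 0.18) and psbM (0.63 ± 0.11), both small photosystem II subunits, and atpB (0.55 ± 0.09) and atpE (0.47 ± 0.10), the β and ε subunits of the ATP synthase, rose too. The rises of atpB, atpE and petB were measured against 20 °C arrays in which these 3 genes were lower than 3 h after the shift, as given below.

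The falls in roots after 24 h came from several complexes. petA, cytochrome f, read 6.91, 7.42 and 7.54 in the 20 °C arrays and 6.37, 6.44 and 6.41 in the 28 °C arrays (1.85-fold, log2 change -0.89 ± 0.16, limma adjusted p = 0.000154). psaJ, a small photosystem I subunit, read 6.64, 7.20 and 6.87 in the 20 °C arrays and 6.46, 5.75 and 5.97 in the 28 °C arrays (1.79-fold, log2 change -0.84 ± 0.20, limma adjusted p = 0.00225). cemA went from 5.78, 6.34 and 6.02 to 5.38, 5.25 and 5.39 (1.63-fold, log2 change -0.71 ± 0.18, limma adjusted p = 0.00423). In all 3 genes the 28 °C arrays lay below the 20 °C arrays. accD (-0.66 ± 0.21) and psaI (-0.60 ± 0.17) fell, but each call was lost in 3 fits without an array. rpoA (-0.41 ± 0.10) and clpP (-0.38 ± 0.09) fell in every such fit. The ribosomal protein falls were those of rpl22 (-0.47), rpl14 (-0.46), rps19 (-0.44) and rps3 (-0.42). The total of 20 became 13 without replicate 2 at 20 °C, and the other fits without an array gave up to 23.

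Calls were also counted over the 6 warm comparisons. Of 43 photosynthesis genes, 9 were called higher at least once and never lower, 14 lower and never higher, 1 (ndhD) in both directions and 19 never. Of 19 gene expression genes, 15 were called lower and 0 higher, and 4 were never called. Over all genes tested, 22.2% were called higher at least once and never lower, and 22.9% lower and never higher. The 15 gene expression genes are those that fell in cotyledons after 24 h, so the other comparisons added none to them. The difference in direction between the classes was not tested. The 6 comparisons share no arrays. psbF was called higher in 5 of 6 comparisons, and in the remaining one, hypocotyl at 3 h, it gave 0.16 ± 0.09 (adjusted p = 0.229). psbE was called in the 3 comparisons at 24 h and petB in both root comparisons. Each of these 3 genes had a positive change in all 6, as did psbJ, which makes 4 of the 69 plastid genes. rpoA was called lower in 3 comparisons, and so was ccsA. A negative change in all 6 was found in 7 of the 69, namely ccsA, rps16, accD, ycf4, rpl14, rpl22 and rps19. The shares of all genes with such repeated calls or signs are not given here.

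**Figure D3:**
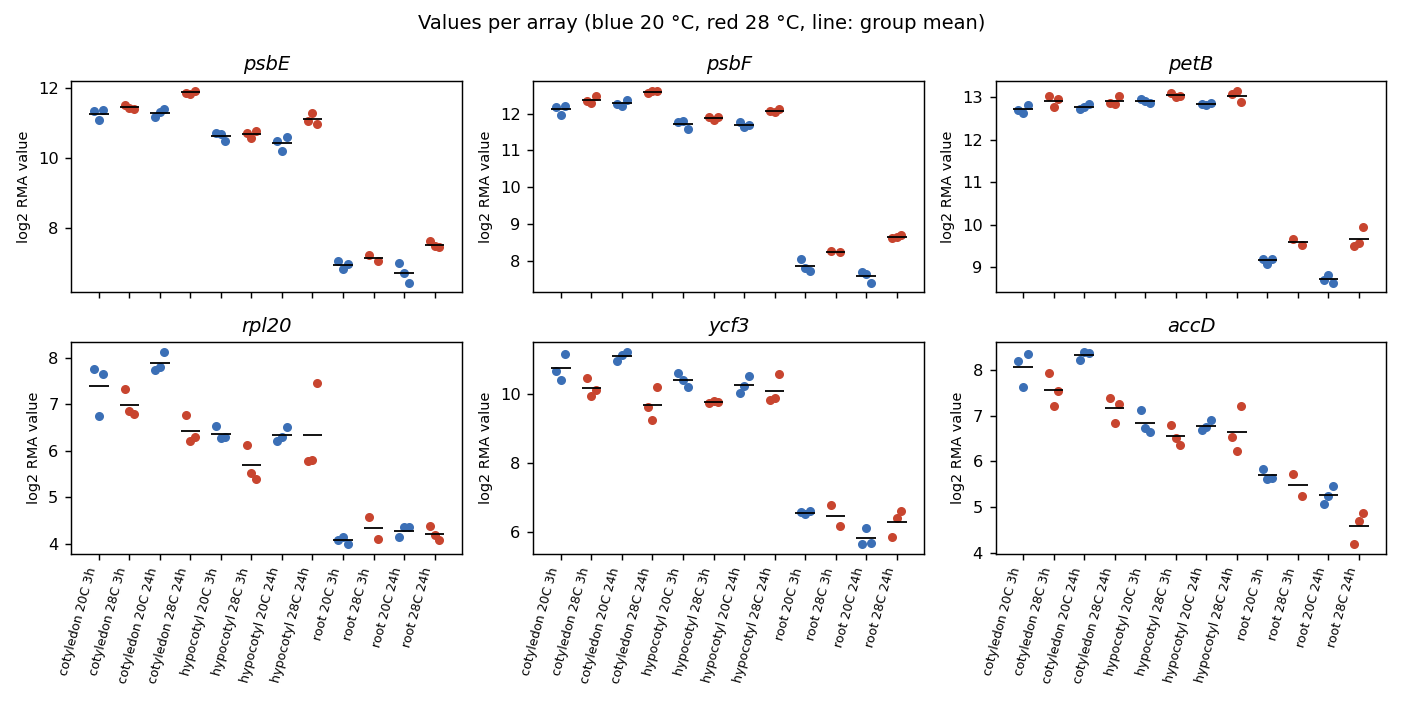
Log2 expression value in each array (points; blue 20 °C, red 28 °C) and group mean (line) of psbE, psbF, petB, rpl20, ycf3 and accD in the 12 groups of organ, temperature and time. psbE and psbF are higher at 28 °C after 24 h in all 3 organs, while rpl20, ycf3 and accD are lower at 28 °C after 24 h in cotyledon, and replicate 3 of hypocotyl at 28 °C after 24 h reads 7.46 for rpl20 beside 5.78 and 5.80.

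Position along the plastid genome was compared with these changes. The stretches of neighbouring genes below were written down after values had been seen and serve as description. The stretch psbE-psbF-psbL-psbJ had a median change of 0.27 in cotyledon, 0.40 in hypocotyl and 0.83 in root after 24 h, and all 4 genes were positive in each organ. The stretch accD-psaI-ycf4-cemA-petA, which holds genes of fatty acid synthesis, photosystem I, its assembly, the envelope and cytochrome b6f, had 5 of 5 genes lower in cotyledon after 24 h and 4 of 5 in root. Its medians were -0.79 and -0.66, and in hypocotyl -0.18 with 0 called by limma. The stretch from rps19 to rpoA, with 6 ribosomal protein genes and rpoA, had 7 of 7 lower in cotyledon and 5 of 7 in root after 24 h. These 7 genes are 7 of the 19 in the gene expression class, so the counts of that class are not counts of independent transcripts.

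Some stretches hold called genes of both classes, together with genes that were not called. In cotyledons after 24 h the small-subunit gene rps2 (-0.54) fell with its neighbours atpI, atpH and atpF, and atpA at the end of that stretch was at -0.17 and not called. In psaA-psaB-rps14, psaA (-0.76) and rps14 (-1.31) fell and psaB between them was at -0.26. The ribosomal gene rps15 (-0.94) fell with ndhE (-1.12) and ndhG (-0.60) of its stretch. The genes next to rps15, ndhH (-0.34), ndhA (-0.11) and ndhI (-0.11), were not called, nor were psaC (-0.45) and ndhD (0.13) at the other end. When the members of a stretch were averaged first within each class, the shift of photosynthesis against gene expression was 0.23 in root after 24 h in place of 0.31 and 0.27 in hypocotyl after 3 h in place of 0.30. This averaging was added after the data had been seen.

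**Figure D4:**
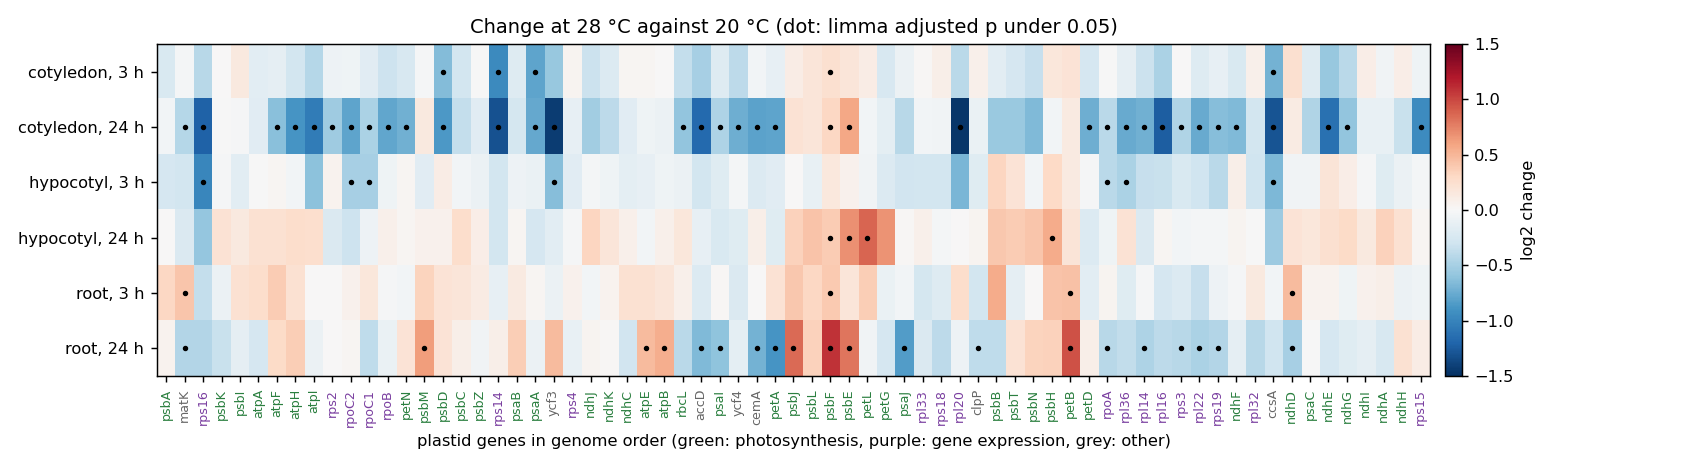
Log2 change at 28 °C against 20 °C (colour, red higher and blue lower) for the 69 plastid genes in genome order (columns) in the 6 comparisons of organ and time (rows), with a dot where limma's adjusted p was under 0.05. Blue runs from accD to petA in cotyledon and root after 24 h and from rpoA to rps19 in the same rows, and psbJ to psbE are red in all 3 rows of 24 h.

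Whether the warm response differed between organs was tested on the difference itself. After 24 h the response of the hypocotyl was higher than that of the cotyledon in 15 plastid genes and lower in 0, against 5.05% and 7.02% of all genes. They included rpl20 (difference of log2 changes 1.47 ± 0.39, limma adjusted p = 0.0108), ndhE (1.36 ± 0.33, adjusted p = 0.00508) and atpI (1.3 ± 0.33, adjusted p = 0.0064). For these 3 genes the cotyledon change was negative and called, and the hypocotyl changes were 0.00, 0.24 and 0.25. The rpl20 difference was 0.91 without replicate 3 of the hypocotyl at 28 °C, still called, and smaller than those of ndhE (1.27) and atpI (1.11) in that fit. The count was 7 without replicate 2 of the cotyledon at 28 °C and up to 21 without another array.

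Between root and cotyledon after 24 h, 22 plastid genes had the higher response in root and 1 the lower, against 9.01% and 11.1% of all genes. The largest differences were those of ycf3 (1.90 ± 0.31, limma adjusted p = 2.43e-05), rps14 (1.39 ± 0.45, adjusted p = 0.0263) and rpl20 (1.39 ± 0.39, adjusted p = 0.0103), and ndhD was the gene that went the other way (-0.63 ± 0.18, adjusted p = 0.0129). The rps14 difference was 0.87 and not called without replicate 3 of the cotyledon at 20 °C. Root readings of rpl20 and rps14 lie close to the dim threshold, and a fall there would be compressed. The same limit applies to the 12 of 69 plastid genes that lay below this threshold in every root group. Its part in these differences was not tested. Without that cotyledon array the count was 15 and without its replicate 2 at 28 °C it was 14. Root and hypocotyl after 24 h differed in 5 genes one way (among them petB 0.76 ± 0.13 and psbF 0.70 ± 0.12) and in 3 the other (cemA -0.80 ± 0.25, ndhD -0.71 ± 0.18 and clpP -0.42 ± 0.13), against 3.68% and 3.80% of all genes. This count was 5 without replicate 2 of the root at 20 °C.

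After 3 h fewer differences between organs were called. limma called 0 plastid genes for hypocotyl against cotyledon (4 at an unadjusted p under 0.05) and 0 for root against cotyledon (4), against 3.35% and 11.5% of all genes. For root against hypocotyl it called matK (0.69 ± 0.18, adjusted p = 0.0192; background 5.30%), and 12 plastid genes had an unadjusted p under 0.05 there, 12 with the higher response in root. Leaving out an array gave up to 2, 4 and 3 calls in these 3 comparisons, the first 2 maxima without replicate 2 of the cotyledon at 20 °C. The count of the root and hypocotyl comparison was 0 when control replicate 1 or warm replicate 3 of the hypocotyl, or control replicate 2 or 3 or warm replicate 2 of the root, was omitted.

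Between 3 h and 24 h the warm response differed in 5 plastid genes in cotyledon, all more negative at 24 h: rps15 (-0.87 ± 0.30), rps16 (-0.80 ± 0.27), cemA (-0.77 ± 0.25), rpoC2 (-0.73 ± 0.23) and petA (-0.67 ± 0.23), against 6.71% of all genes. That count ranged from 0 to 13 when 1 array was left out and was 0 without replicate 3 at 20 °C after 24 h, replicate 1 at 28 °C after 3 h or replicate 2 at 28 °C after 24 h. In root, psbF (0.68 ± 0.13), psbE (0.62 ± 0.17) and petB (0.51 ± 0.14) were more positive at 24 h, and petA (-1.11 ± 0.25), ndhD (-0.97 ± 0.19) and matK (-0.85 ± 0.18) more negative, against 1.92% and 1.42% of all genes. This count was 3 without replicate 2 of the root at 28 °C after 3 h. ndhD and matK rose after 3 h and fell after 24 h in roots. At 20 °C after 3 h, root readings of ndhD lay not far above the dim threshold of 3.85, where differences may be understated. From 3 h to 24 h the 20 °C root arrays changed too, by -0.44 for petB, -0.27 for psbF and -0.24 for psbE. For petA, ndhD and matK they changed by -0.25, 0.28 and 0.16, and only the petB change was called. A fall of the controls raises such a difference and a rise lowers it. In hypocotyl 0 plastid genes were called by limma and 8 had an unadjusted p under 0.05, against 0.659% of all genes.

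The organs were compared at 20 °C over both times, with 6 arrays each. Hypocotyls read lower than cotyledons for 33 of 43 photosynthesis genes and higher for 0, with a median difference of -0.97. Gene expression genes went both ways, 9 higher and 4 lower, with a median of 0.21. Over all genes 30.2% were higher and 36.1% lower. petL showed the largest difference (-2.58 ± 0.18, 5.98-fold, limma adjusted p = 2.42e-14), then ndhE (-2.56 ± 0.17) and the NDH subunit gene ndhK (-2.14 ± 0.17). psbA was 3.07-fold lower in hypocotyl (-1.62 ± 0.13) and rbcL 2.04-fold (-1.03 ± 0.11). rps4 (0.40 ± 0.07), rpl14 (0.39 ± 0.11) and rps16 (0.37 ± 0.13) led the genes that were higher in hypocotyl, with rpoA (0.33 ± 0.07) and rpoC2 (0.29 ± 0.12) among them. The call for rps16 was lost without replicate 3 of the hypocotyl after 24 h and without replicate 2 of the cotyledon after 3 h.

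Roots read lower than cotyledons for all 69 plastid genes (limma adjusted p under the threshold in each), against 37.5% of all genes. The median difference was -4.12 for photosynthesis genes and -3.01 for gene expression genes. ndhJ read 11.83, 11.25 and 11.64 in cotyledons and 4.17, 3.97 and 3.71 in roots at 20 °C after 3 h (-7.74 ± 0.17 over both times). Root readings of ndhJ and of ndhK (-6.68 ± 0.17) lay at or below the dim threshold of 3.85 or just above it, so their fitted differences may understate the true ones and are not ranked. psbC, a photosystem II antenna protein, gave -5.57 ± 0.13, with root means of 5.48 and 5.26 at the 2 times. The smallest differences were those of rpoB (-0.66 ± 0.09), ndhF (-0.79 ± 0.15) and petD (-1.23 ± 0.15). rpoB read 4.08, 3.63 and 4.33 in cotyledons and 3.45, 3.56 and 3.37 in roots at 3 h, near the dim threshold in both, so its small difference is bounded by the range of its probe set. Against hypocotyls, roots were lower for 66 of 69 genes (background 24.5%), among them atpA (-4.98 ± 0.12) and psaB (-4.82 ± 0.11), and ndhJ, whose fitted -5.66 ± 0.17 is limited by the same dim root readings. The 3 that were not called were rpoB (0.07), petD (-0.29) and ndhF (-0.23). When arrays were centred on reference genes, the median of all genes became -0.41 for root against cotyledon and -0.37 for root against hypocotyl, in place of -0.03 and 0.03, and 69 and 69 plastid genes were lower.

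**Figure D5:**
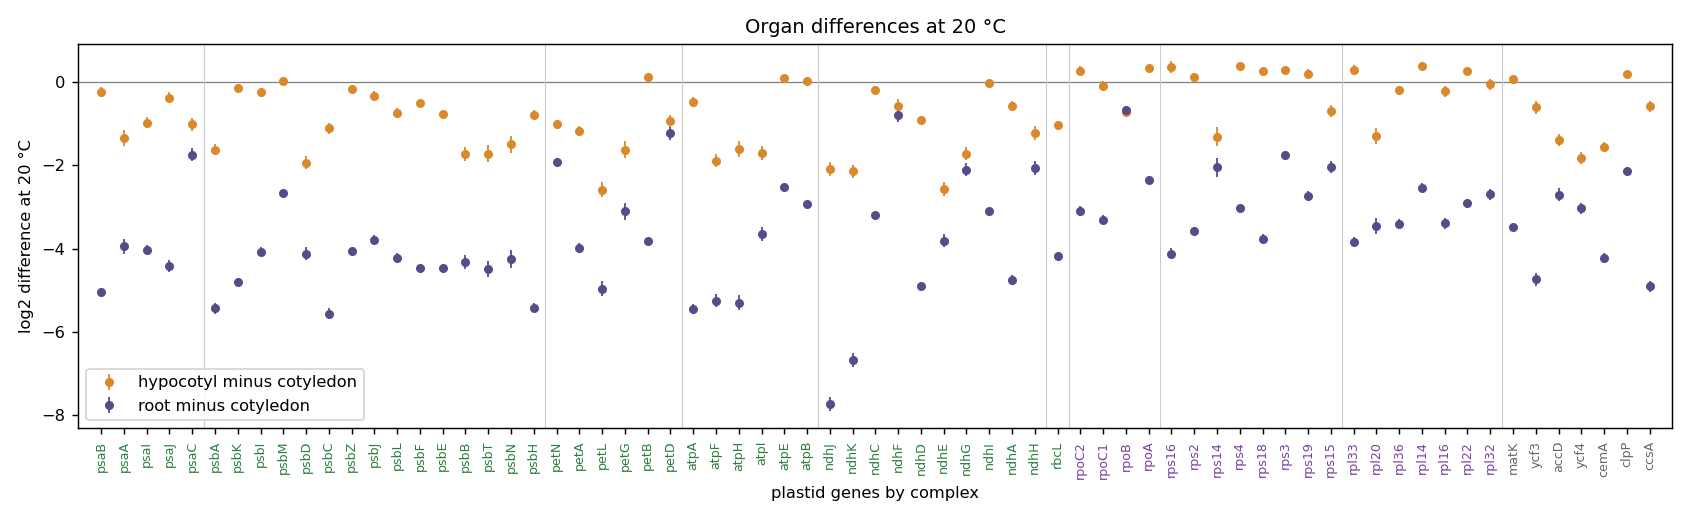
Log2 difference at 20 °C (points, with bars of 1 standard error) of hypocotyl minus cotyledon (orange) and root minus cotyledon (violet) for the 69 plastid genes by complex; gene names are green for photosynthesis, purple for gene expression and grey for others. All root differences are below 0, from a fitted -7.74 for ndhJ, which is dim in roots, to -0.66 for rpoB, and hypocotyl differences run from -2.58 for petL to 0.40 for rps4.

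At 20 °C alone, harvest at ZT 7 of day 6 was compared with harvest at ZT 10 of day 5. In hypocotyl limma called 0 (1 at an unadjusted p under 0.05), against 1.94% of all genes. In cotyledon it called 1, rps3 (0.33 ± 0.12, adjusted p = 0.0498), against 17.6% of all genes, and 7 had an unadjusted p under 0.05, all higher at 24 h; 66 of 69 changes were positive with a median of 0.21. The low replicate 2 at 3 h belongs to this comparison. Without it 0 genes were called, without replicate 2 or 3 at 24 h 0, without replicate 1 at 3 h 3 and without replicate 3 at 3 h 5. In root atpB (-0.46 ± 0.09), atpE (-0.44 ± 0.10) and petB (-0.44 ± 0.09) were lower at 24 h. They are 4.35% of the plastid genes, against 0.255% of all genes, and at an unadjusted p under 0.05 19 plastid genes were lower and 1 higher. atpB in roots read 11.13, 10.86 and 11.12 at 20 °C after 3 h, 10.46, 10.78 and 10.50 at 20 °C after 24 h and 10.89, 11.11 and 11.37 at 28 °C after 24 h. Its 28 °C arrays of 24 h overlapped the 20 °C arrays of 3 h. These 3 root calls were lost without replicate 1 or 3 at either time.

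Nuclear genes for partners of the plastid-encoded subunits were taken from a list, of which 7 of 35 genes had a probe set naming only them. They were PSAE1 and PSAN of photosystem I, PSBW and PSBY of photosystem II, ATPC1 of the ATP synthase, and NDHN and NDHL of the NDH complex. In cotyledons after 24 h at 28 °C, 1 of the 7 passed, NDHN (0.33 ± 0.09, limma adjusted p = 0.00558), which rose. Over all genes 15.0% rose and 13.4% fell there, so 1 rise among 7 genes is no contrast to the plastid falls. In hypocotyls after 24 h NDHN rose as well (0.40 ± 0.09, limma adjusted p = 0.00386). In roots PSAN (0.78 ± 0.18, limma adjusted p = 0.00241) and PSBY (0.45 ± 0.15, limma adjusted p = 0.046) rose after 3 h, and PSBY (0.49 ± 0.13, limma adjusted p = 0.00736) after 24 h. The shares of all genes that rose were 5.08% in hypocotyl after 24 h, 5.38% in root after 3 h and 8.39% in root after 24 h. All 7 were lower in roots than in cotyledons at 20 °C, as the plastid genes were, against 37.5% of all genes.

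Of the genes that act on plastid RNA, RPOTmp, a phage-type polymerase of mitochondria and plastids, was 1 of 21 listed transcription genes that were measured. It fell in cotyledons after 3 h (-0.67 ± 0.11, limma adjusted p = 1.55e-05) and rose after 24 h (0.35 ± 0.11, limma adjusted p = 0.0148). Of 13 listed genes of plastid RNA processing and decay, 2 were measured, too few to describe the group. Over all genes 12.1% and 13.4% fell in cotyledons after 3 h and 24 h, and 7.64% and 4.58% in hypocotyls. CP29B, a chloroplast ribonucleoprotein, fell in cotyledons after 3 h (-0.35 ± 0.09, limma adjusted p = 0.00399) and 24 h (-0.66 ± 0.09, limma adjusted p = 6.22e-07) and in hypocotyls after 3 h (-0.35 ± 0.09, limma adjusted p = 0.00726) and 24 h (-0.39 ± 0.09, limma adjusted p = 0.0041). OTP81, a pentatricopeptide protein of plastid RNA editing, fell in hypocotyls after 3 h (-0.84 ± 0.12, limma adjusted p = 8.73e-06) and in cotyledons after 3 h (-0.41 ± 0.12, limma adjusted p = 0.0122). The part of these genes in the plastid changes was not tested. Markers of other cells were few under the annotation used: 0 of 8 root and 0 of 6 green-tissue markers were measured, and 2 of 4 stomatal ones, FAMA and GASA9. FAMA, a guard cell transcription factor, was lower in cotyledons at 28 °C after 24 h (-0.34 ± 0.12, limma adjusted p = 0.0326), GASA9 was higher in hypocotyls at 28 °C after 24 h (0.76 ± 0.14, limma adjusted p = 0.000598), and their part in the changes beside them was not tested. With 1 marker given per organ, no change in the number of stomatal cells was read from them.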

How the data were processed

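The authors deposited log2 values per probe set for 35 Affymetrix arrays of RNA from dissected cotyledons, hypocotyls and roots. Per the submitters' processing notes they used RMA, which corrects background, normalises quantiles between arrays and summarises probes, and limma; versions, and which arrays were normalised together, are not given in the sources used here. Arrays have no read depth, and precision is set by how many there are. A change with warmth had a median standard error of 0.105 log2 over all genes, and 0.117 for root after 3 h.

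Of 22746 probe sets, 13513 name 1 gene in the platform annotation, and 13286 of the 13356 genes matched RefSeq (assembly TAIR10.1) by gene identifier, which gave locus tags, symbols and gene order. Where a gene had several probe sets, the one with the highest mean stood for it; no plastid gene had more than 1. Group means of the 12 groups were fitted to all arrays in 1 model (23 residual degrees of freedom), using lmFit, contrasts.fit and eBayes of limma 3.58.1 under R 4.3.3. Tests were two-sided, with Benjamini-Hochberg adjustment over all genes of a comparison. Per the series' design text, each replicate pools distinct sets of seedlings collected over successive harvesting sessions. The p-values measure the spread between such pools, taken for each gene over all 12 groups and not only those compared. The mean of the plastid genes per array had an SD of 0.27 in cotyledons at 20 °C after 3 h. In roots at 20 °C after 24 h that SD was 0.07. Where a group spreads more than most, the standard errors given for it may be too small.

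The plastid genes, classes and gene lists were chosen with earlier results of these data known. Any plastid gene could be named. Values per array were meant for the 5 largest called changes in either direction of a warm comparison, the 3 largest of each organ comparison and tested difference, and psbA, rbcL, psaA, psaB, the rpo genes, accD, clpP, ycf3, rps16, petL, psbE and rpl20. To limit length, some of these are given by their change and standard error alone. Nuclear genes came from fixed lists, up to 4 per list and comparison. Same-numbered replicates at 20 °C and 28 °C deviated from their group means at r = -0.20 to 0.15 across genes, so the numbers were not taken to pair the samples and the block is only an alternative. Alternatives were other eBayes settings, array weights, only the arrays compared, dim genes left out, centring on reference genes or medians, quantile normalisation within each organ, the mean over a gene's probe sets, every probe set tested, a replicate block and leaving out each array. The fit was tested on simulated data. Sequences were not used here.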

Additional observations from a re-analysis of the deposited data

Results flagged for a closer look

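The tests of a difference between warm responses, by organ or by time, called plastid genes in 6 of the 9 comparisons made. The values below are differences of log2 changes from limma, and no cause was tested for any of them.

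Hypocotyl minus cotyledon after 24 h had 15 called genes, all with the higher response in hypocotyl, among them rpl20 (1.47), ndhE (1.36) and atpI (1.3). Over all genes 5.05% were higher and 7.02% lower. The rpl20 value was 0.91 without replicate 3 of the hypocotyl at 28 °C, below those of ndhE and atpI. Root minus cotyledon after 24 h had 23, among them ycf3 (1.9), rps14 (1.39) and rpl20 (1.39), with ndhD the gene of the opposite sign (-0.63). The shares over all genes were 9.01% higher and 11.1% lower. The rps14 value was 0.87 and not called without replicate 3 of the cotyledon at 20 °C. In both comparisons the cotyledon arrays at 24 h are shared, so the counts are not independent of each other.

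Root minus hypocotyl had 1 called gene after 3 h, matK (0.69), against 5.30% of all genes. That count was 0 to 3 with 1 array left out. After 24 h there were 8, against 3.68% of all genes higher and 3.80% lower. Of the 8, petB (0.76), psbF (0.7) and psbM (0.57) had the higher response in root and cemA (-0.8), ndhD (-0.71) and clpP (-0.42) the lower.

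For 24 h minus 3 h, the cotyledon had 5 called genes, among them rps15 (-0.87), rps16 (-0.8) and cemA (-0.77). All were lower, against 6.71% of all genes lower, and the count ranged from 0 to 13 with 1 array left out. The root had 6, namely psbF (0.68), psbE (0.62), petB (0.51), petA (-1.11), ndhD (-0.97) and matK (-0.85). Over all genes 1.92% were higher and 1.42% lower there. In the root ndhD and matK were called higher at 3 h and lower at 24 h, and the 3 h values rest on 2 arrays at 28 °C. Root readings of ndhD at 20 °C after 3 h lay not far above the dim threshold. The 20 °C root arrays changed between these times by -0.44 for petB, -0.27 for psbF and -0.24 for psbE. For petA, ndhD and matK they changed by -0.25, 0.28 and 0.16. No group held 4 or more arrays, so single arrays were not tested as outliers.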

How the results depend on the processing

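Counts are plastid genes called. The class shift stayed positive in all 6 comparisons under every alternative run, no called change of a named gene turned its sign, and named genes without a call did turn in places (rpl20 in hypocotyl at 24 h, 0.00, became -0.55 without the array in which it was high). Leaving out 1 array gave 2 to 8 in hypocotyl at 3 h and 3 to 5 at 24 h, 2 to 16 in cotyledon at 3 h and 27 to 37 at 24 h, and 0 to 6 in root at 3 h and 13 to 23 at 24 h. For organs at 20 °C it gave 48 to 54 (hypocotyl and cotyledon), 69 (root and cotyledon) and 65 to 66 (root and hypocotyl), and for time at 20 °C 0 to 0, 0 to 5 and 0 to 4 in hypocotyl, cotyledon and root. Differences of responses ranged over 0 to 2 and 7 to 21 (hypocotyl minus cotyledon at 3 h and 24 h), 0 to 4 and 14 to 22 (root minus cotyledon), 0 to 3 and 5 to 8 (root minus hypocotyl), and 0 to 1, 0 to 13 and 3 to 6 (24 h minus 3 h in hypocotyl, cotyledon and root). Fitting only the arrays compared gave 11 in hypocotyl at 3 h (7), 1 in cotyledon at 3 h (5), 2 in root at 3 h (4), 0 for cotyledon time (1), 1 and 2 for root minus cotyledon (0) and minus hypocotyl (1) at 3 h, 5 for root minus hypocotyl at 24 h (8) and 1 for cotyledon 24 h minus 3 h (5), with the reported count in brackets. Trend and robust eBayes gave 4, 2 and 3 for hypocotyl at 3 h, cotyledon at 3 h and cotyledon 24 h minus 3 h, and 1, 2 and 1 for root minus cotyledon and root minus hypocotyl at 3 h and hypocotyl 24 h minus 3 h. Array weights gave 3 in cotyledon at 3 h and 2 for cotyledon time. Without dim genes, cotyledon 24 h minus 3 h gave 8, and quantile normalisation within organs gave 9 there and 1 in hypocotyl 24 h minus 3 h. Centring on reference genes gave 2 for cotyledon time, 1 and 3 for hypocotyl and cotyledon 24 h minus 3 h. The replicate block gave 0 for cotyledon time in place of 1 and moved no other count by over 1.5 times. The alternatives to the class shift were chosen after seeing the data: hypocotyl at 3 h became 0.28 with quantile normalisation within organs and 0.27 with neighbouring genes averaged, and root at 24 h 0.23 with the latter. With 1 array left out, the class shift ranged from 0.29 to 0.31 in hypocotyl at 3 h, 0.22 to 0.35 at 24 h, 0.02 to 0.11 and 0.33 to 0.41 in cotyledon, and 0.17 to 0.28 and 0.27 to 0.34 in root. The cause of these moves was not tested.

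Centring on reference genes moved the share of rises among all genes called to 54.5% from 38.8% for cotyledon time, to 19.2% from 39.3% for root time, to 38.4% from 54.5% for hypocotyl minus cotyledon at 3 h, to 73.9% from 53.4% for hypocotyl 24 h minus 3 h, to 30.0% from 51.1% for root against cotyledon and to 22.3% from 59.5% for root against hypocotyl. The 12 members dim in every root group have values that may understate falls.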

Other observations

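Genes of the inverted repeat, whose probe sets name both copies and which were therefore outside the set above, were read in a fit over every probe set. In cotyledons after 24 h at 28 °C, both probe sets of the small-subunit gene rps12 were lower (-1.68 ± 0.32, limma adjusted p = 8.79e-05, and -0.80 ± 0.24, limma adjusted p = 0.00971). Also lower were ycf1 (-0.76 ± 0.16, limma adjusted p = 0.000251), ycf2 (-0.67 ± 0.14, limma adjusted p = 0.000268), the NDH subunit gene ndhB (-0.58 ± 0.15, limma adjusted p = 0.0026) and the large-subunit gene rpl23 (-0.39 ± 0.14, limma adjusted p = 0.0327). The genes rpl2 (-0.25 ± 0.11, limma adjusted p = 0.0718) and rps7 (-0.49 ± 0.20, limma adjusted p = 0.0563) were not called. After 3 h in cotyledons ycf2 was lower (-0.37 ± 0.14, limma adjusted p = 0.0466), and in the hypocotyl and root comparisons of 28 °C with 20 °C none of these 8 probe sets passed the same test. ycf1 and ycf2 were lower in roots than in cotyledons at 20 °C with differences of -2.65 and -0.86 log2.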
